A study of Saccharomyces cerevisiae with 8 samples.

Results

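A14 is a strain of the budding yeast Saccharomyces cerevisiae that the study describes as aneuploid, meaning that it carries an abnormal number of some chromosomes. The array described here carried total RNA of A14, labelled with Cy5, against total RNA of the wild type WT2, labelled with Cy3. It was chosen by its title, together with the array of a further wild type RNA, WT1, in Cy5 against the same WT2, which gives the background. It is 1 of 8 arrays in the series, and the 6 others hold the aneuploid strains A2, A3, A9, A10, A13 and A15 in Cy5 against WT2. Of 6256 genes on each array, 6126 passed the filter on signal, and 6117 of these had a ratio on the A14 array. All strains were grown to mid-log phase, and no other treatment, genotype, ploidy or karyotype is given in the labels. The labels call both WT1 and WT2 wild type. The purpose of the comparison, per the series title, was to read the transcriptional consequences of aneuploidy.

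Each strain was hybridised once, so every value of A14 comes from a single array with 2 spots per gene and has no replicate. Nothing states whether the RNAs came from separate cultures. Median raw signals on the A14 array were 826 in Cy5 and 364 in Cy3, over backgrounds of 36.5 and 22, and 95.4 and 93.6% of genes stood above background in the respective channels. Because the Cy5 channel was the brighter one, raw signals of the channels are comparable only after normalization, and the log2 ratios below are normalized. Between duplicate spots the log2 ratio varied with an SD of 0.0674 on the A14 array and 0.0699 on the WT1 array. The dyes were not swapped, so a dye effect that is shared by all arrays remains in each ratio. RNA came from bulk cultures, in which fewer cells of a kind and less RNA per cell cannot be told apart.

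An extra chromosome gives a yeast cell an extra copy of each gene on it, and the transcript level of most such genes is known to follow the copy number. Other genes can change as well, because regulators sit on the extra chromosome or because the cells grow and handle stress and nutrients differently. To separate the 2 layers, each gene was described by its log2 ratio over WT2 and again relative to the chromosome, that is, after subtraction of the median log2 ratio of the genes of its chromosome on the same array.

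Transcript levels were raised along the whole of chromosomes IX and XVI in A14, and the other 14 nuclear chromosomes stayed below the threshold, a median log2 ratio of 0.3. The median log2 ratio over WT2 was 0.79 over 217 genes of chromosome IX and 0.75 over 482 genes of chromosome XVI. Set against the other 14 chromosomes, these medians correspond to 1.75-fold and 1.70-fold. These sizes depend on the processing, and alternatives gave medians of up to 0.86 on chromosome IX and 0.88 on chromosome XVI. The medians of the other 14 chromosomes lay between -0.03 and 0.02, and no nuclear chromosome of the WT1 array exceeded 0.0358 in size. Of the genes on chromosome IX, 96.8% had a ratio above 0 on the A14 array, and of those on chromosome XVI 97.5%. In the WT1 comparison the corresponding shares were 54.1 and 52.0%. The quartiles of the A14 ratios ran from 0.59 to 0.998 on chromosome IX and from 0.53 to 0.96 on chromosome XVI, above all quartiles of the other chromosomes.

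**Figure D1:**
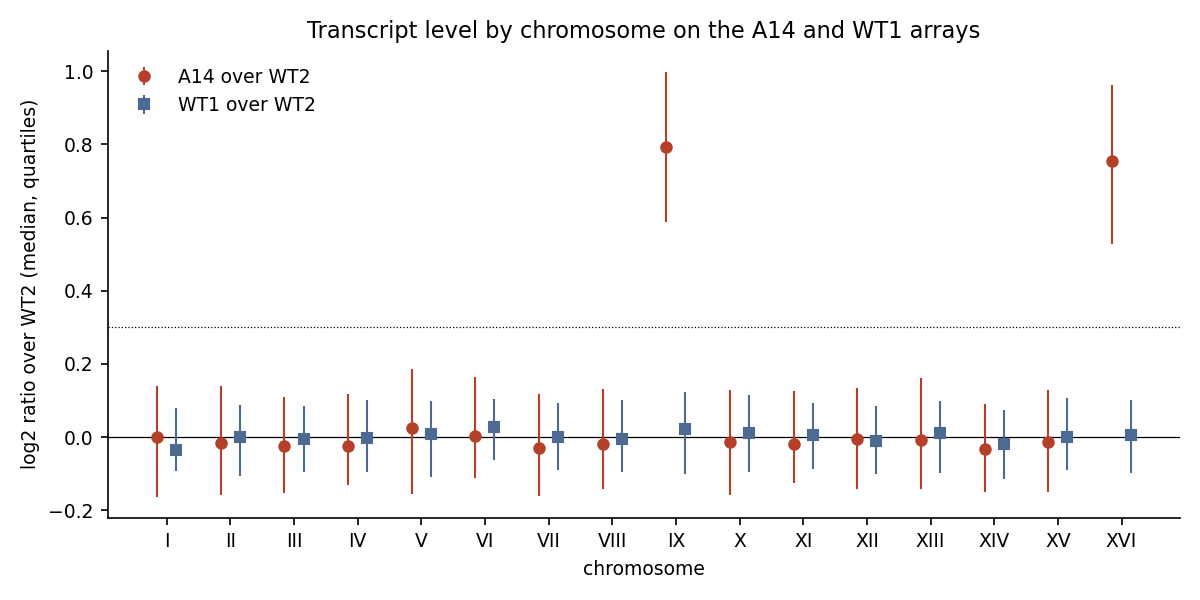
Median log2 ratio over WT2 of the genes of each nuclear chromosome, with bars from the lower to the upper quartile over genes, on the A14 array (red circles) and the WT1 array (blue squares). The dotted line marks the threshold of 0.3. Chromosomes IX (0.79) and XVI (0.75) of A14 lie above it, and all other medians lie within 0.04 of 0.

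Both arms of each raised chromosome took part. On chromosome IX the median was 0.80 over 173 genes of the left arm and 0.75 over 44 genes of the right arm, and on chromosome XVI it was 0.75 over 280 genes and 0.76 over 202 genes. Along chromosome IX, the medians of 10 successive windows of 20 genes lay between 0.66 and 0.89. Along chromosome XVI, 24 windows lay between 0.46 and 0.95. No window of the other chromosomes came near these values: their 262 windows ran from -0.20 to 0.20, and from -0.15 to 0.10 on the WT1 array. The lowest window of chromosome XVI ran from HRR25 to YPL185W on the left arm and had a median of 0.46. It was also the dimmest of the 24 windows, with a median log2 intensity of 8.03, and the part of brightness in its lower median was not tested. Of the 6 other strains, A9 also had chromosome XVI above the threshold, with a median of 0.55, and the same window stood at 0.43 there. No other strain had chromosome IX above the threshold, and in A9 its median was -0.12.

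**Figure D2:**
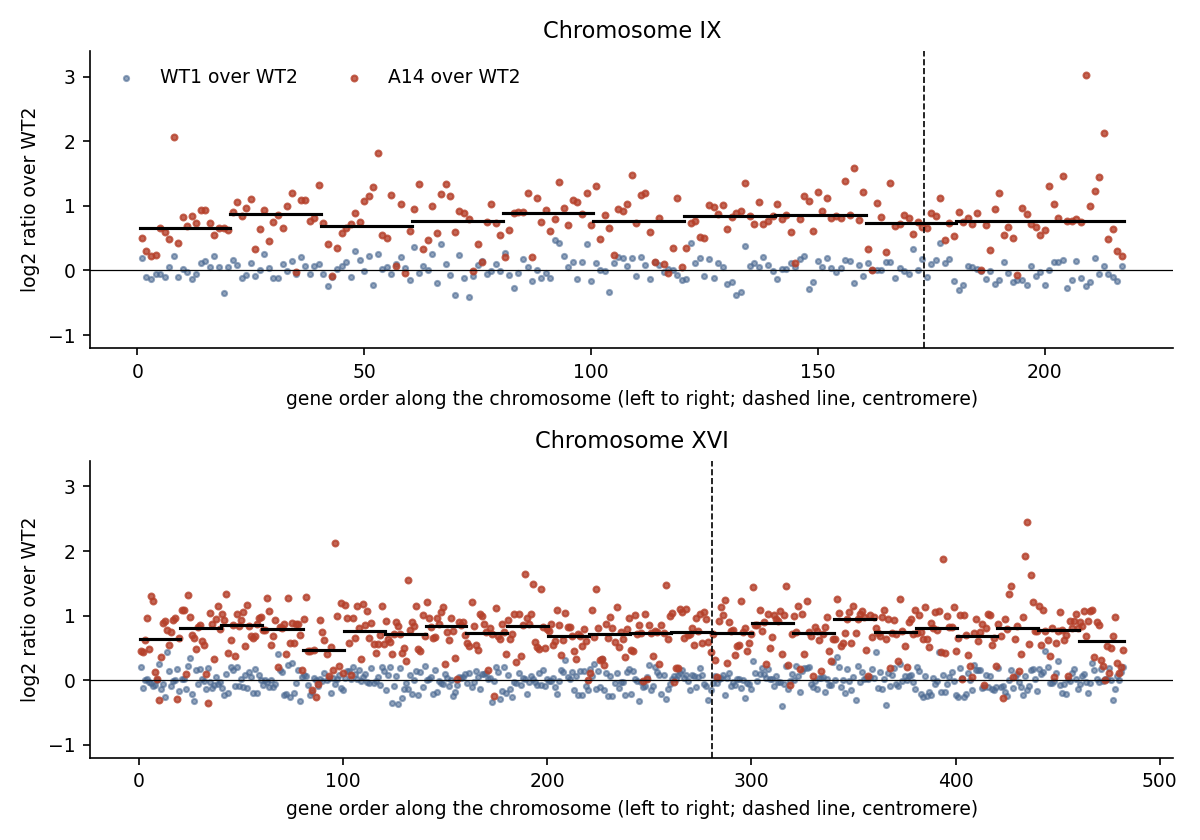
Log2 ratio over WT2 of each gene along chromosomes IX and XVI, in gene order, on the A14 array (red) and the WT1 array (blue). Black lines are A14 medians of windows of 20 genes, and the dashed line marks the centromere. The A14 windows lie between 0.46 and 0.95 on both arms, while WT1 scatters around 0.

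The size of the rise varied with brightness. With all genes split into 3 equal classes of brightness, the fold over the other chromosomes was, in the dimmest class, 1.41 on chromosome IX and 1.38 on chromosome XVI. In the middle class it was 1.81 and 1.78, and in the brightest 1.86 and 1.89. The processing adds a constant of 50 to each signal, which pulls the ratios of dim genes towards 0. The classes were not recomputed without it, so its part in the lower folds of dim genes was not tested.

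Most genes that were at least 2-fold higher in A14 sat on the raised chromosomes. In all, 182 of 6117 genes (2.98%) were at least 2-fold higher than in WT2 and 20 (0.327%) at least 2-fold lower. On the WT1 array 0 genes (0%) were at least 2-fold higher and 1 (0.0163%) was lower. At 1.5-fold, 10.3% of genes were higher and 1.32% lower in A14, and 0.0979 and 0.0326% in WT1. Chromosomes IX and XVI, which hold 699 genes or 11.4% of those measured, contributed 155 of the 182 higher genes, or 22.2% of their genes. On the rest of the genome 27 genes, or 0.50%, were that much higher. None of the 20 lower genes lay on chromosome IX or XVI.

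In several protein complexes whose subunits are spread over the genome, the ratio differed by chromosome. In the proteasome, which degrades ubiquitinated proteins, the 3 subunit genes on the raised chromosomes stood at 1.08 (PRE2), 1.20 (RPN2) and 1.13 (RPN7) on the log2 scale over WT2. The other 29 subunit genes had a median of 0.16 and none exceeded 0.48. Of the chaperonin CCT, which folds actin and tubulin, CCT2 on chromosome IX stood at 1.20 and the 7 other subunit genes at a median of 0.03, between -0.20 and 0.16. The 2 V-ATPase subunit genes on chromosome XVI, VMA11 and VMA13, had a median of 1.03 against 0.10 for 12 others. Among the tRNA synthetases, HTS1, CDC60 and THS1 had a median of 0.92, and the 16 others a median of -0.18 with none above 0.03. For subunits of the mitochondrial ribosome the medians were 0.89 over 6 genes on the raised chromosomes and -0.05 over 61 genes elsewhere. For the nuclear RNA polymerases they were 0.71 over 4 genes and -0.05 over 26. In each of the 6 groups above, which were picked after their values were seen, the lowest ratio on a raised chromosome was higher than the highest ratio elsewhere. Some other groups overlapped. The lowest of 3 spindle and kinetochore genes on the raised chromosomes stood at 0.19 and the highest of 28 elsewhere at 0.41. For the respiratory chain these values were 0.72 over 4 genes and 0.89 over 37. Of all genes on chromosomes IX and XVI, 96.8 and 97.5% were above 0, and their lower quartiles were 0.59 and 0.53. No upper quartile of another chromosome exceeded 0.19, so a gap is the usual case for any set of genes. Whether the 6 groups differ in this from other genes of chromosomes IX and XVI was not tested. Factors of ribosome assembly stood at a median of 0.81 over 9 genes against -0.19 over 75. They did not overlap, with a lowest ratio of 0.20 on the raised chromosomes and a highest of 0.14 elsewhere. Nor did ergosterol genes, with a lowest of 0.75 over 2 genes and a highest of 0.46 over 23 elsewhere.

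Genes of cytosolic ribosomal proteins were more mixed. Their 12 large subunit members on the raised chromosomes had a median of 0.73 but reached down to -0.26, and the 70 members elsewhere had a median of -0.19. At the top were RPL43A at 1.15, RPL36B at 1.04 and RPL40A at 0.93. At the bottom were RPL7B at -0.26 and RPL16A at -0.09, each the copy of a duplicated ribosomal protein gene. The Cy5 signal of RPL16A was saturated on both spots, so its ratio is a lower bound. The 4 small subunit members on the raised chromosomes had a median of 0.57 and the 52 elsewhere one of -0.23. Probes of near-identical gene copies can share target RNA, so values of single paralogs are uncertain.

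Of the 699 genes on chromosomes IX and XVI, 19 (2.72%) had a ratio at or below 0 on the A14 array, 7 on chromosome IX and 12 on chromosome XVI. Of these, 3 were not above background in the Cy5 channel, the Cy3 channel or both. The lowest on chromosome XVI was ATG41, an autophagy gene, at -0.35 over WT2, while the WT1 array gave 0.19. It was followed by SAM3, the permease for S-adenosylmethionine, at -0.31, and DIP5, the permease for acidic amino acids, at -0.29. ASN1, an asparagine synthetase, stood at -0.28 and CAR1, the arginase that starts arginine breakdown, at -0.24. These 4 therefore lay between 0.99 and 1.06 below the median of their chromosome. ASN1 was also below its chromosome in every other strain, between -1.31 and -0.40, whereas SAM3 lay between -0.19 and 0.43 in the 6 other strains. On chromosome IX, PRM5, a pheromone-regulated membrane protein gene that also responds to cell wall stress, stood at -0.04. TIR3, a cell wall mannoprotein gene of cells short of oxygen, stood at -0.00 and GAT4, a GATA-type zinc finger gene, at 0.01. VTC3, a subunit of the vacuolar polyphosphate polymerase, stood at -0.03 on chromosome XVI.

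Other genes on these chromosomes lay far above the chromosome median, 8 of them by at least 2-fold. NRE1 (YIR035C), a predicted short-chain dehydrogenase on chromosome IX, stood at 3.03 over WT2, with the spots at 3.04 and 3.03, and at -0.24 on the WT1 array. Also on chromosome IX were YPS6, a yapsin-type aspartic protease gene, at 2.13, CSS1 at 2.07 and SIM1, a cell wall gene of the SUN family, at 1.82. On chromosome XVI, TDA6 (YPR157W) stood at 2.45. GUP2, a membrane protein gene related to the acyltransferase gene GUP1, stood at 2.13 and HOB2 at 1.87. Below these came EEB1, an ethyl ester synthase, at 1.64, KRE6, of cell wall glucan synthesis, at 1.63, PEP4, the vacuolar proteinase A, at 1.56, and GLR1, glutathione reductase, at 1.49. All of them lay between -0.24 and 0.25 on the WT1 array. Several were also high in other strains relative to the chromosome. CSS1 lay between 0.98 and 5.12 in the 6 other strains, and in A10 YPS6 stood at 2.12 and SIM1 at 1.58. In A9, NRE1 stood at 1.75, TDA6 at 1.80 and HOB2 at 1.25, whereas GUP2 stood at -0.14.

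After the chromosome median was subtracted, the A14 array still differed from WT2 more than WT1 did. The SD over genes was 0.295 in A14, 0.156 in WT1 and between 0.226 and 0.636 in the 6 other strains. On the WT1 array 99% of genes lay within 0.43 of their chromosome, and on the A14 array within 0.99. Relative to the chromosome, 36 genes (0.589%) were at least 2-fold higher in A14 and 25 (0.409%) at least 2-fold lower, with 8 and 5 of them on chromosomes IX or XVI. On WT1 the counts were 0 (0%) and 1 (0.0163%). With the array centred on its median in place of loess the split was 42 higher and 97 lower. None of the 61 genes exceeded 0.408 in size on the WT1 array. A14 lay above WT1 and all 6 other strains for 11 of the 36 higher genes. It lay below all of them for 13 of the 25 lower genes. Because these genes were picked for lying far from their chromosome in A14, both counts are partly set by that choice. The corresponding shares over all genes were not computed. In A9, 26 of the 36 were at least 2-fold higher too, and 16 of the 25 at least 2-fold lower. The A9 shares over all genes are not given, so the A9 counts do not measure a likeness between A9 and A14. Of the 61, 60 had both spots on the A14 array and 1 rests on a single spot. The paired spots differed by at most 0.325 except for KEX1, a protease gene of pheromone processing, whose spots gave -0.26 and 2.21. The mean of these disagreeing spots, 0.98 over WT2, put KEX1 among the 36.

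**Figure D3:**
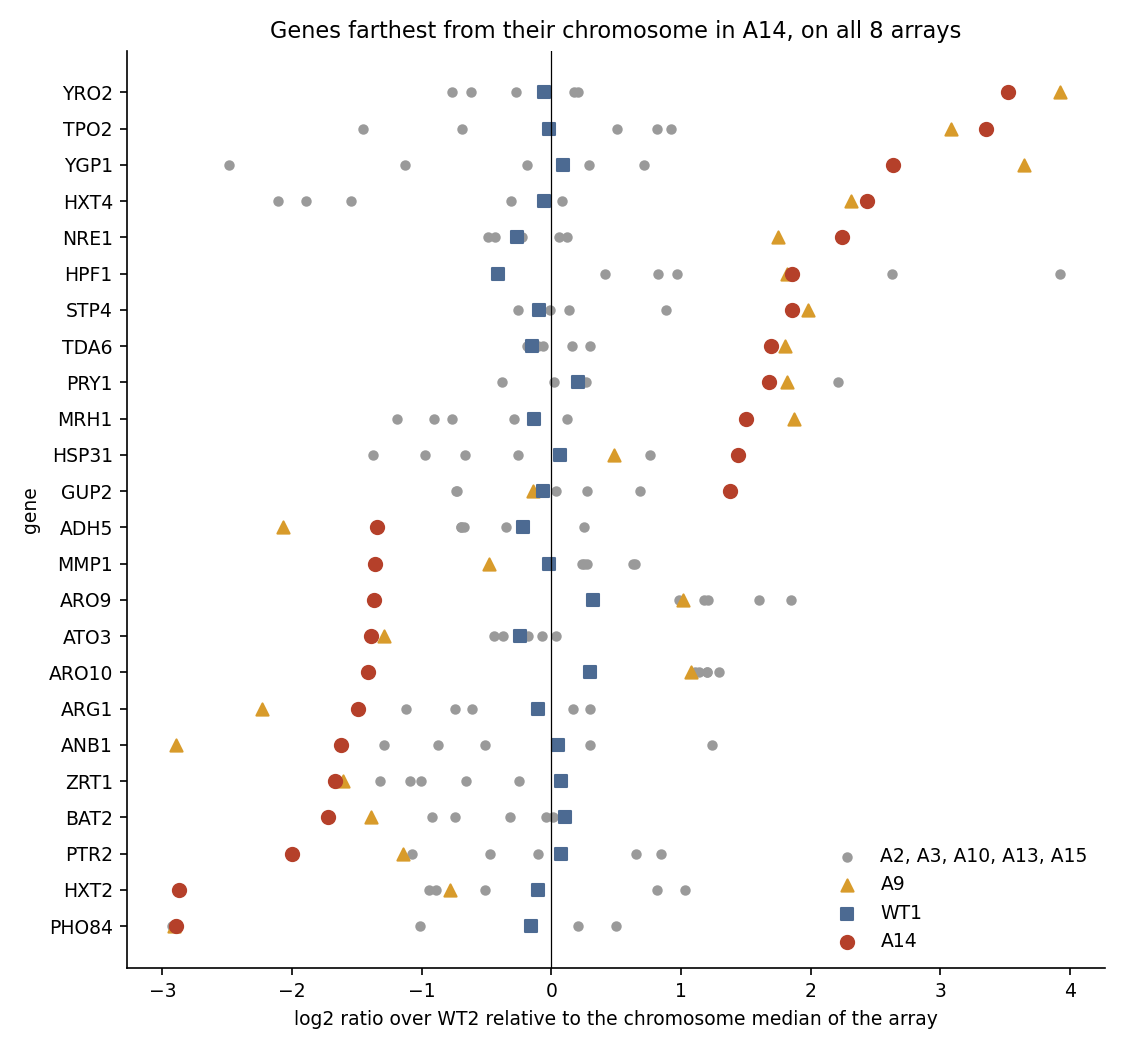
Log2 ratio over WT2 relative to the chromosome, for the 12 highest and 12 lowest genes of A14 on that scale, on all 8 arrays. A14 is shown as red circles, WT1 as blue squares, A9 as orange triangles and the other 5 strains as grey points. WT1 lies between -0.41 and 0.32 throughout, whereas A14 lies above 1.37 or below -1.33.

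Genes known as targets of Haa1 led the list. Haa1 is a transcription factor that activates genes of tolerance to acetic and other weak acids, among them exporters, cell wall proteins and membrane proteins, and its own gene lies on chromosome XVI. YRO2, a plasma membrane protein gene, had raw signals of 4345 in Cy5 and 162 in Cy3 on the A14 array, and its log2 ratio was 3.57 on the first spot and 3.44 on the second. Their mean of 3.50 is 11.4-fold over WT2, and WT1 stood at -0.05. TPO2, a polyamine exporter gene of the plasma membrane, followed at 3.32 on the log2 scale (raw signals 4672 and 202), against -0.02 in WT1. YGP1, a secreted glycoprotein gene that is also induced on nutrient limitation, stood at 2.61 or 6.09-fold, against 0.07. These 3 lie on chromosomes II, VII and XIV, which were not raised.

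In the other strains these genes ranged widely. On the scale relative to the chromosome, YRO2 lay between -0.76 and 3.93 in the 6 other strains with a median of -0.05, and the 3.93 was that of A9. TPO2 lay between -1.45 and 3.08 with a median of 0.66, and YGP1 between -2.48 and 3.65 with a median of 0.05, each time with A9 at the top. A14 and A9 share the WT2 reference and the raised chromosome XVI, and their values are given side by side without a measure of likeness. The transcript of HAA1 itself stood at 0.90 over WT2 in A14 (spots 0.83 and 0.97) and 1.05 in A9. In A2, A3, A10, A13 and A15 it lay between -0.33 and 0.28, and WT1 stood at 0.11. HAA1 was at 0.15 in A14 relative to chromosome XVI.

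Of the 18 Haa1 targets measured, 10 were at least 1.5-fold higher relative to their chromosome, 6 of them at least 2-fold, and 0 were 1.5-fold lower. Over all genes the corresponding share at 1.5-fold was 2.62% higher and 2.14% lower in A14, and 0.0979 and 0.0326% in WT1. The list's median was 0.64 in A14, against 0 over all genes, -0.01 on WT1 and -0.35 to 0.93 in the 6 other strains, with A9 at the top. Besides the 3 leading genes, those past 1.5-fold included NRE1 at 2.24 relative to its chromosome, PHM8, a phosphatase gene, at 1.16, and SPI1, a cell wall protein gene, at 0.97. TOS3, a kinase gene of the Snf1 pathway, stood at 0.83, YPC1, a ceramidase gene, at 0.66 and HSP26, a small heat shock protein gene, at 0.63. The other 8 were within 1.5-fold of their chromosome, from HRK1, a kinase gene that acts on the plasma membrane proton pump, at 0.39 down to INM1, an inositol monophosphatase gene, at -0.45.

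PMA1, the plasma membrane proton pump that acid stress bears on, and proteins of the same membrane formed a short list put together after these values were seen. PMA1 stood at 1.09 over WT2, with spots at 1.08 and 1.11 and WT1 at 0.03. MRH1, the paralog of YRO2, stood at 1.48 with WT1 at -0.13. PMA1 was also above its chromosome in every other strain, between 0.23 and 1.25, whereas MRH1 lay between -1.19 and 1.87. The small proteolipid genes of the pump, PMP1 and PMP2, stood at 0.38 and 0.43 over WT2, and the second pump gene, PMA2, at 0.74 on the raised chromosome XVI. Of the 8 genes of the list, 3 were 1.5-fold higher relative to their chromosome, against 2.62% of all genes. They were PMA1, MRH1 and YRO2, which is also counted among the Haa1 targets. Because the list was formed around genes already seen to be high, this count is no separate support.

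Cell wall and stress genes were also higher. At 1.5-fold, 2.62% of all genes were higher and 2.14% lower relative to the chromosome, which is the background to each count here. Of 21 genes of the cell wall integrity pathway, which repairs the wall under the transcription factor Rlm1, 9 were at least 1.5-fold higher relative to the chromosome and 2 lower. The list's median was 0.33, against 0.00 in WT1 and 0.18 to 1.06 in the other strains. Its leading members were the wall protein genes PIR3 at 1.17 and HSP150 at 0.99, and the 2 lower ones were PRM5 at -0.83 and GSC2, a glucan synthase gene, at -0.64. RLM1 itself, on chromosome XVI, stood at 0.52 over WT2. Of 16 flocculins and mannoproteins 3 were higher and 1 lower, among them HPF1, a wall mannoprotein gene, at 1.86. HPF1 was above its chromosome in every strain, between 0.41 and 3.93, and stood at -0.41 in WT1. All 24 seripauperin genes, near-identical subtelomeric copies, were within 1.5-fold, with a median of 0.27 in A14 and -0.12 in WT1.

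Of 52 genes of the general stress response under Msn2 and Msn4, 47 were above 0 relative to the chromosome, 15 at least 1.5-fold higher and 0 lower, against 2.62 and 2.14% of all genes. Their median was 0.30 in A14, 0.05 in WT1 and between -0.33 and 1.52 in the other strains, so A14 lay inside the strains' range. Besides YGP1, which is on both lists, the leading members were HSP31, a chaperone and glyoxalase gene, at 1.44, and HSP12, a membrane-associated stress protein gene, at 1.09. Among genes of glycerol and trehalose metabolism 3 of 23 were 1.5-fold higher, led by GPP2, a glycerol phosphatase gene, at 1.32. GSY2, glycogen synthase, stood at 0.71 in A14 but also at 0.77 in WT1. Heat shock chaperones did not share this pattern: 0 of 29 were 1.5-fold higher and 1 was lower, CPR6, a cochaperone of Hsp90, at -0.71. Their median was -0.13 in A14, against 0.15 in WT1. Of 18 genes of the unfolded protein response of the endoplasmic reticulum, 0 passed 1.5-fold in either direction, and of 19 Yap1 targets GLR1 was higher at 0.73 and GPX2, a peroxidase gene, lower at -1.09.

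Glucose transport shifted between family members. Yeast takes up glucose by transporters of differing affinity, with HXT1 and HXT3 used at high glucose and HXT2 and HXT4 at low glucose. HXT4 stood at 2.41 over WT2 or 5.33-fold higher (spots 2.47 and 2.36), and HXT2 at -2.88, which is 7.37-fold lower (spots -2.84 and -2.92). WT1 stood at -0.06 and -0.09 for these genes. The 6 other strains had HXT2 between -0.94 and 1.03 relative to the chromosome, all above A14, and HXT4 between -2.11 and 2.31. HXT1 and HXT3 stood at 0.89 and 0.83, and the near-identical pair HXT6 and HXT7 at -0.56 and -0.55. MIG2, a glucose repressor gene, stood at 0.84 and GLK1, glucokinase, at 0.59. The glucose sensor genes SNF3 and RGT2 stood at -0.09 and 0.03. In all, 5 of 26 genes were 1.5-fold higher and 1 was lower, against 2.62 and 2.14% of all genes.

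PHO84, the high-affinity phosphate transporter gene, was the lowest gene of A14. Its log2 ratio over WT2 was -2.90, 7.48-fold lower (spots -2.82 and -2.99, raw signals 372 in Cy5 and 1404 in Cy3), and WT1 stood at -0.14. A14 at -2.89, A9 at -2.91 and A10 at -2.93 all stood low relative to the chromosome, and the 4 other strains lay between -1.01 and 0.50. Yeast induces PHO84 through the factor Pho4, which the cyclin-dependent kinase Pho85 holds inactive when phosphate is plentiful. PHO85 lies on chromosome XVI and stood at 0.73 over WT2 in A14, at the level of its chromosome. Of 25 genes of phosphate uptake and storage, 3 were 1.5-fold lower relative to the chromosome and 1 higher, against 2.14 and 2.62% of all genes. The lower ones were PHO84, SPL2, a regulator of low-affinity phosphate uptake, at -0.81, and VTC3 at -0.78. The higher one was PHM8 at 1.16. The acid phosphatase gene PHO5, a standard target of Pho4, stood at 0.21 and PHO89, a sodium-coupled phosphate transporter gene, at 0.02. The list's median was -0.23 in A14 and -0.07 in WT1.

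Several genes of amino acid uptake, breakdown and synthesis were also low in A14, where 2.14% of all genes were at least 1.5-fold lower and 2.62% higher relative to the chromosome. PTR2, the transporter of dipeptides and tripeptides, stood at -2.02 over WT2, 4.04-fold lower, with both spots at -2.02 or -2.01 and WT1 at 0.08. Relative to the chromosome the other strains lay between -1.15 and 0.85, all above A14. MMP1, the S-methylmethionine permease gene, stood at -1.36, and the other strains lay between -0.48 and 0.65. In a list of 22 amino acid and peptide permeases that was put together after the values were seen, 8 were at least 1.5-fold lower relative to the chromosome and 0 higher. Besides PTR2, MMP1, SAM3 and DIP5 these were MUP1, a methionine permease gene, at -0.87, TAT1 at -0.77, AGP1 at -0.72 and BAP2 at -0.64. The general amino acid permease gene GAP1 stood at 0.30 and the arginine permease gene CAN1 at -0.05.

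Of 54 amino acid synthesis genes, many under the factor Gcn4, 9 were 1.5-fold lower and 1 higher, and 11 lay above 0, against 2.14 and 2.62% of all genes past the fold. Their median was -0.23, against 0.09 in WT1 and -0.35 to 0.04 in the other strains. ARG1, argininosuccinate synthase, stood at -1.49, HIS4, of histidine synthesis, at -1.13, and ASN1 at -1.03. On the WT1 array these 3 stood at -0.11, 0.35 and -0.10. In A9, ARG1 at -2.23 and HIS4 at -2.11 stood lower than in A14, and ASN1 stood at -0.91. In the sulfur and methionine list, 5 of 30 genes were lower and 0 higher. They included CYS4, cystathionine beta-synthase, at -0.93, beside MMP1, SAM3 and MUP1. LEU2, a leucine synthesis gene that laboratory strains often lack, stood at -0.53 over WT2 in A14 and 0.32 in WT1. LYS2 and ADE2, further marker genes, stood at -0.25 and -0.19.

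The Ehrlich pathway breaks down aromatic and branched-chain amino acids to alcohols. An aminotransferase acts first, a decarboxylase second and an alcohol dehydrogenase last, and the factor Aro80 activates ARO9 and ARO10 when aromatic amino acids are present. BAT2, the cytosolic branched-chain aminotransferase gene, stood at -1.74 over WT2, 3.33-fold lower (WT1 0.12). ARO10, the phenylpyruvate decarboxylase gene, stood at -1.44, 2.71-fold lower, with spots at -1.48 and -1.40 and WT1 at 0.30. ARO9, the aromatic aminotransferase gene, stood at -1.39, 2.62-fold lower, with spots at -1.36 and -1.42 and WT1 at 0.32. ADH5, an alcohol dehydrogenase gene, stood at -1.36. Relative to the chromosome, the other strains had BAT2 between -1.39 and 0.01 and ADH5 between -2.07 and 0.25, with A9 lowest in both. Of 18 genes of the pathway, a list put together after the values were seen, 5 were 1.5-fold lower relative to the chromosome and 0 higher, against 2.14 and 2.62% of all genes. The fifth was BAT1, the mitochondrial paralog of BAT2, at -0.70. ARO8, the other aromatic aminotransferase gene, stood at 0.15, ARO80 at 0.17, and the pyruvate decarboxylase genes PDC1, PDC5 and PDC6 between 0.13 and 0.27.

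ARO10 was also the gene of smallest p when A14 was tested against the 6 other strains. Relative to the chromosome its log2 ratio was 1.29 in A2, 1.14 in A3 and 1.08 in A9. It was 1.20 in both A10 and A13 and 1.11 in A15, against -1.41 in A14 and 0.30 in WT1. A14 was thus below WT2 while each of the 6 other strains was above it. The difference of A14 from the mean of the 6 was -2.58 with an SE of 0.155 (limma with Benjamini-Hochberg adjustment over 6117 genes, adjusted p = 0.00119). It was the only gene called at an adjusted p under 0.05, so that 0.0163% of genes were called lower and 0% higher, and 137 genes had an unadjusted p under 0.05. Without subtraction of chromosome medians the difference was -2.50 (limma adjusted p = 0.00923), again the only call, with 354 genes at an unadjusted p under 0.05. This test takes the single A14 array to vary like the 6 other strains, and its p-values can reflect technical spread between arrays as well as that between strains. With WT1 added to the 6 strains the difference was -2.46 and the limma adjusted p = 0.182. Without chromosome medians subtracted, the call was also lost with the slide row as a block (limma adjusted p = 0.114) and without A2 (0.0509), A3 (0.0759) or A13 (0.0726).

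ARO9 moved with a similar size but more spread. It stood at -1.37 in A14 relative to the chromosome and between 0.99 (A15) and 1.85 (A10) in the 6 other strains, with a median of 1.19. The difference was -2.67 with an SE of 0.327 (limma adjusted p = 0.121), and without A10 it was -2.57 (limma adjusted p = 0.0348). KEX1 had the next smallest p, with a difference of 1.27 (limma adjusted p = 0.129). It rests on the disagreeing A14 spots given above, while the 6 other strains lay between -0.41 and -0.11.

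**Figure D4:**
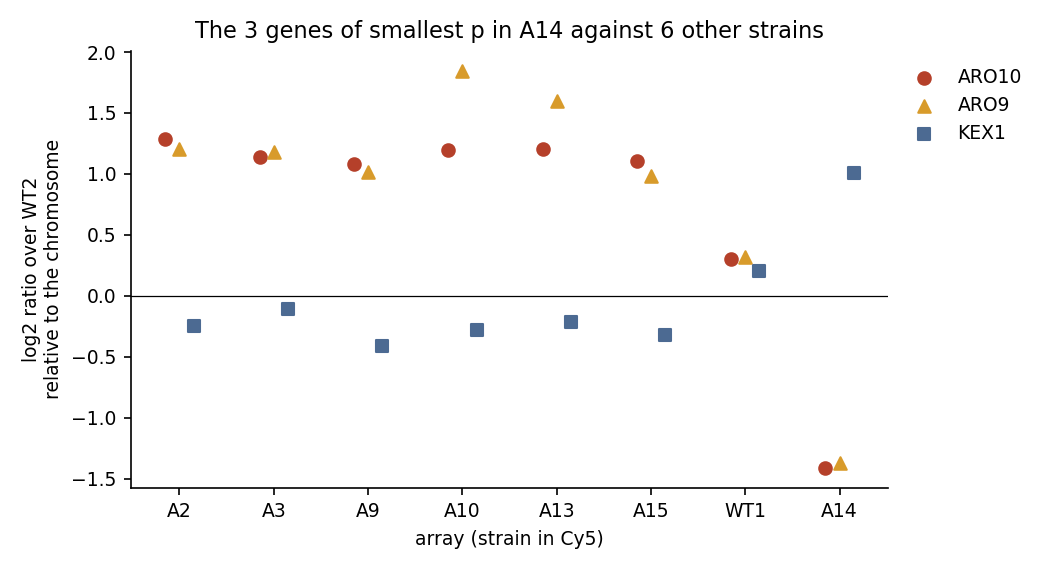
Log2 ratio over WT2 relative to the chromosome, on each of the 8 arrays, for ARO10, ARO9 and KEX1, the 3 genes of smallest p in A14 against the 6 other strains. ARO10 and ARO9 lie at 0.99 or higher in the 6 strains and below -1.36 in A14, and WT1 lies between. The A14 value of KEX1 is the mean of spots that disagree.

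Some zinc and oxygen genes were low as well, beside the same shares of 2.14% lower and 2.62% higher at 1.5-fold over all genes. ZRT1, the high-affinity zinc transporter gene, stood at -1.70 over WT2 with WT1 at 0.08, and relative to the chromosome it was below 0 in all 6 other strains, between -1.60 and -0.25. Of 13 zinc genes under the factor Zap1, a list put together after the values were seen, 3 were 1.5-fold lower and 0 higher: ZRT1, IZH4 at -1.05 and ZRT2, the low-affinity transporter gene, at -0.82. ZAP1 stood at -0.09. Of 16 genes that the repressor Rox1 keeps low in the presence of oxygen, 4 were lower and 2 higher. ANB1, the hypoxic gene of translation factor eIF5A, stood at -1.62 and AAC3, a mitochondrial ADP/ATP carrier gene, at -1.30, with TIR1 at -0.82 and TIR3 at -0.79. CYC7 at 0.94 and TIR2 at 0.60 were the higher ones. On the same scale the 6 other strains had ANB1 between -2.89 and 1.24 and AAC3 between -2.55 and 0.70, with A9 lowest in both. Other low genes on none of the lists, the last 3 of them named after their values were seen, were ATO3, a membrane protein gene of ammonium export, at -1.39, IRC7 at -1.15, NFG1 at -1.13 and YGR035C at -1.07. ROX1, on chromosome XVI, stood at 0.57 over WT2.

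Lists of growth and respiration genes had medians of opposite sign and small size. At most 3 members of each passed 1.5-fold, and over all genes 2.62% did so upwards and 2.14% downwards. Of 56 small subunit ribosomal protein genes 51 lay below 0 relative to the chromosome, with a median of -0.20 against 0.04 in WT1, and 3 were 1.5-fold lower. The lowest, RPS20, rests on spots that disagree by over 1 on the log2 scale. The large subunit genes had a median of -0.15 over 82 genes, of which 3 were 1.5-fold lower, and ribosome biogenesis factors -0.15 over 84, of which 0 were. In the 6 other strains the medians of both ribosomal protein lists were also below 0, between -0.41 and -0.09. Under alternative processing the A14 medians shrank to as little as -0.06 for the small subunit and -0.03 for the large. Nuclear genes of the respiratory chain had a median of 0.20, with 37 of 41 above 0, and genes of the TCA and glyoxylate cycles one of 0.22, with 24 of 29 above 0. In each of these lists 3 genes were 1.5-fold higher and 0 lower, among them SDH1, succinate dehydrogenase, at 0.83 and NDE1, an external NADH dehydrogenase, at 0.89. The other strains spread from -0.66 to 1.04 and from -0.29 to 1.11 in these lists. Histone genes had a median of 0.27, with 10 of 11 above 0 and none past 1.5-fold, against -0.49 to 0.18 in the other strains and -0.01 in WT1. Proteasome genes had a median of 0.18, with 27 of 32 above 0 and none past 1.5-fold.

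**Figure D5:**
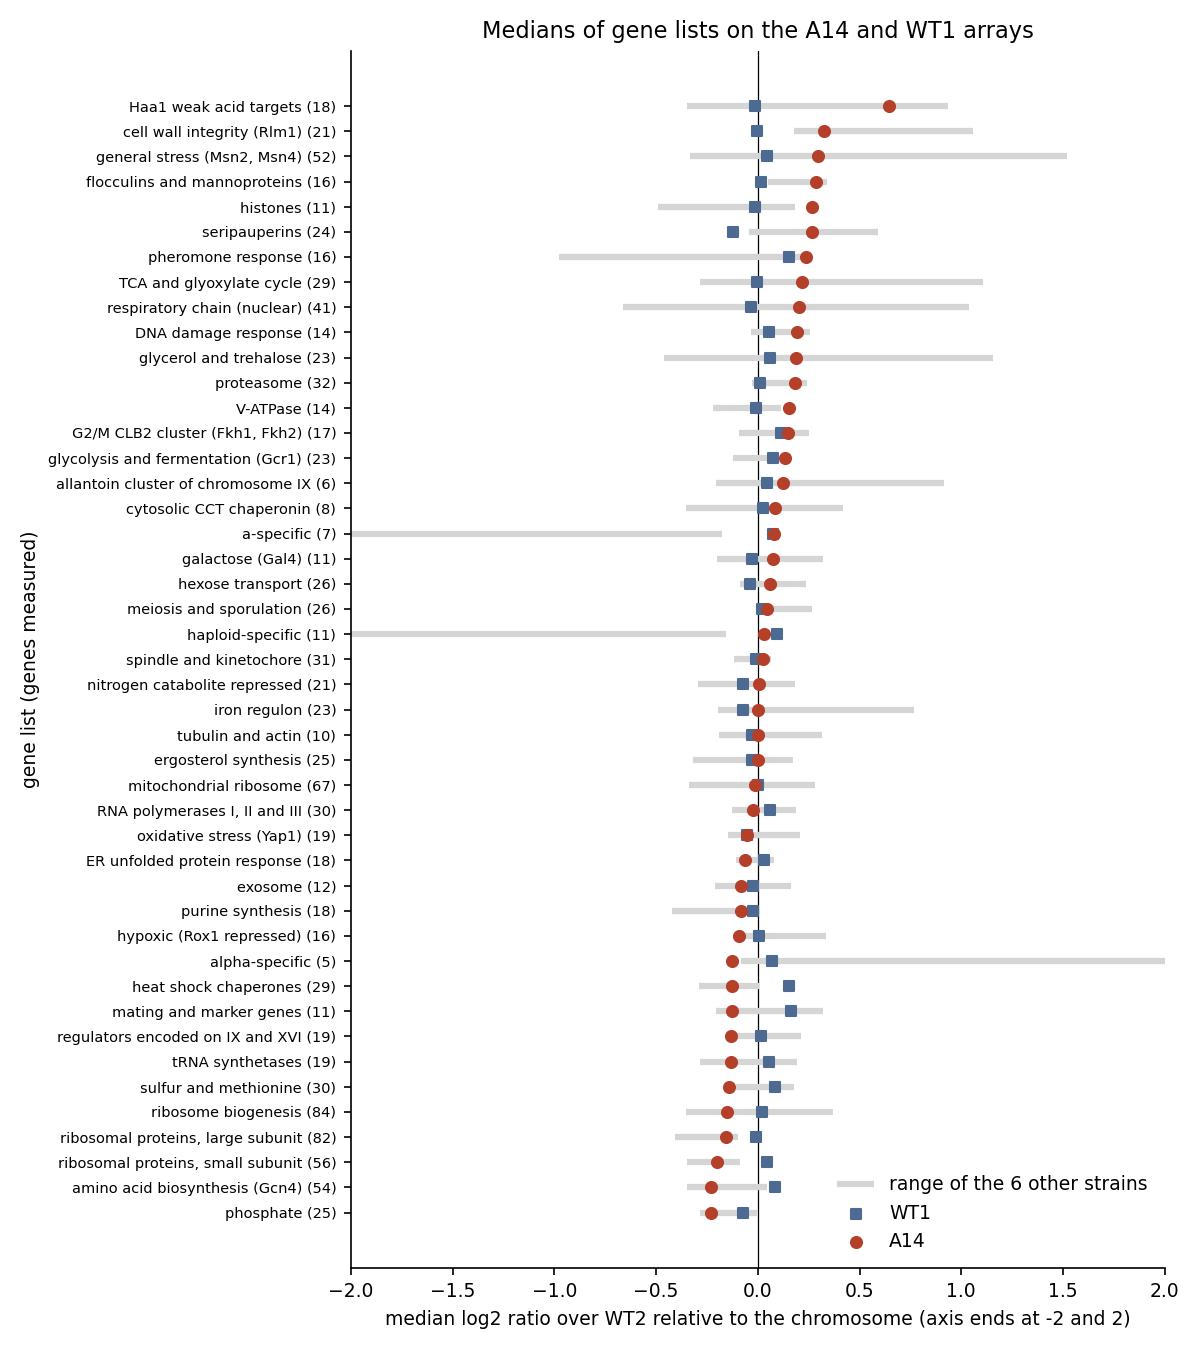
Median log2 ratio over WT2 relative to the chromosome for 45 gene lists, with the number of genes measured, on the A14 array (red circles) and the WT1 array (blue squares). Grey bars span the medians of the 6 other strains, and those of the a-specific, alpha-specific and haploid-specific lists run past the ends of the axis. The Haa1 targets of A14 stand at 0.64, and the phosphate genes and amino acid synthesis genes at -0.23.

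Most of 19 listed regulators encoded on chromosomes IX and XVI were above WT2 but below the median of their chromosome. Their 19 genes had a median of 0.62 over WT2 and of -0.13 relative to the chromosome. On the latter scale 5 (26.3%) lay above 0, against 49.9% of all genes, and the part of brightness in this was not tested. Over WT2 the lowest regulator was RPI1, a repressor of the Ras pathway, at 0.07. The highest were SUA7, the general factor TFIIB, and STH1, the catalytic subunit of the RSC chromatin remodeller, both at 1.08. Of the 19, only RPI1 was 1.5-fold lower than its chromosome, and 0 were higher. Over all genes 2.62% were that much higher and 2.14% lower, which is the background to this count and to those of the target lists below. Whether the regulators acted on these lists was not tested. GAL4, the activator of galactose genes, stood at 0.32 over WT2, and 0 of 11 galactose genes passed 1.5-fold. GCR1, the activator of glycolytic genes, stood at 0.62, and among 23 glycolytic and fermentation genes 1 was higher, ENO1 at 0.72, and 1 lower, ADH5. MET31, of sulfur metabolism, stood at 0.71, and FKH1, of the CLB2 cluster of mitosis genes, at 0.58. In that cluster CLB1 at 0.77 was the only 1 of 17 genes past 1.5-fold. DAL81, of allantoin and amino acid use, stood at 0.72. The allantoin gene cluster on chromosome IX stood at 0.92 over WT2 over 6 genes, of which DCG1 at 1.46 was 1.5-fold above the chromosome.

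Mating-type genes of A14 stood near WT2, unlike those of some other strains. The pheromone receptor gene of a cells, STE2, stood at 0.08 in A14 and 0.09 in WT1 relative to the chromosome, against -6.30 to -0.29 in the 6 other strains. Over 7 a-specific genes the median was 0.08 in A14 and between -4.35 and -0.18 in the others, and over 5 genes specific to alpha cells it was -0.13 in A14 and up to 4.77 elsewhere. Over 11 haploid-specific genes the median was 0.03 in A14 and between -2.74 and -0.15 in the others. STE3, the receptor gene of alpha cells, stood at 0.73 over WT2 in A14, and MFA2, an a-pheromone gene, at 0.70. These values of the 6 other strains are part of the spread against which A14 was tested for those genes.

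Lists that showed little in A14 relative to the chromosome were those of mitochondrial ribosomal proteins (median -0.02), ergosterol synthesis (0.00), purine synthesis (-0.08), the exosome (-0.08), and tubulin and actin (0.00). In these 5 lists 0 genes passed 1.5-fold in either direction. Over all genes 2.62% were that much higher and 2.14% lower, which is the background to each count in this paragraph. Of 31 spindle and kinetochore genes 1 was lower, AME1 at -0.59. Of 21 nitrogen catabolite genes 2 were lower, MEP1, an ammonium permease gene, at -0.65 and AGP1. Of 23 iron genes TIS11, which degrades mRNAs under iron shortage, was higher at 0.67, with WT1 at -0.44. Of 14 DNA damage genes RNR2, of ribonucleotide reductase, was higher at 0.64. Of 26 meiosis and sporulation genes 2 were higher and 3 lower, and of 16 pheromone response genes PRM3 was lower at -0.68.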

How the data were processed

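Per the file headers, Agilent Feature Extraction 10.5.1.1 quantified the spots. The authors' deposited spot files give median spot and background intensity per channel without normalization, per the file headers. They further hold, as deposited, a processed signal with background removed and dyes balanced, and the log10 ratio of Cy5 over Cy3 made from it. A table of log2 ratios was deposited too; it equals those log10 ratios after conversion, within 5e-04, with every column median at 0.

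In R 4.3.3, limma 3.58.1 corrected the median signals with normexp (offset 50) and fitted loess within each array, giving 536 control spots and the outlier spots no weight. Outlier spots were then dropped, saturated ones kept and 2 spots per gene averaged. A gene was kept if either channel was well above background on 2 or more arrays. Chromosomes were read from ORF names, and no coordinates are given. Of 6256 genes, 5756 matched an entry of assembly R64, used for names only.

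With 1 array per strain, no test of A14 over WT2 was made, and called means past the stated fold. A14 was tested against the 6 other strains with limma's lmFit and eBayes, two-sided, with Benjamini-Hochberg adjustment. The test was tried on simulated data with known changes. The number of arrays limits the precision.

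The array, its 49 gene lists and the rule for named genes were chosen with earlier results of these data known, and 4 of the lists after the values were seen. The rule took the 12 highest and 12 lowest genes relative to the chromosome, the 8 highest and 8 lowest on each raised chromosome and the 10 of smallest p per test. It also took up to 4 genes per list and all genes of the Haa1, phosphate, hexose, regulator and mating lists. Other genes named, such as single subunits of complexes and members of the 4 later lists, were chosen after their values were seen. Alternatives were the processed signals, the value table, median centring, an offset of 16, other filters and thresholds, subtraction of WT1, arms in place of chromosomes, the slide row, WT1 in the test and each strain left out. Values of some single genes are not reported here.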

Additional observations from a re-analysis of the deposited data

Results flagged for a closer look

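ARO10 stood apart because the test of the difference itself was passed: A14 lay 2.58 below the mean of the 6 other strains relative to the chromosome (log2 difference -2.58, limma adjusted p = 0.00119), and it was on the other side of WT2 from all 6. The single A14 array has no replicate, and its 2 spots gave -1.48 and -1.40 over WT2. The call was lost when WT1 was added to the 6 strains (limma adjusted p = 0.182).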

How the results depend on the processing

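Chromosomes IX and XVI of A14, and no others, passed the threshold of 0.3 under every alternative tried, including thresholds of 0.2 and 0.45. Their medians, 0.79 and 0.75 in the main setting, were 0.83 and 0.81 with an offset of 16. With Agilent's processed signals they were 0.86 and 0.88, and with no filter on signal 0.77 and 0.75. Counts of genes at least 2-fold from WT2 moved more. The main count was 202 (182 higher, 20 lower), and it became 446 with Agilent's processed signals and 447 with the value table, neither of which adds an offset. With thresholds of 1.5-fold and 3-fold it was 710 and 23. Relative to the chromosome the count was 61 (36 higher, 25 lower). It became 238 with the processed signals and also with the value table (149 higher, 89 lower), 139 with median centring (42 higher, 97 lower; the cause was not tested), 291 at 1.5-fold and 15 at 3-fold. In the test of A14 against the 6 other strains, 1 gene was called. Relative to the chromosome the count was 2 with the processed signals and with the value table, 4 with only the arrays of the same slide row (A13 and A15), and 0 with WT1 added. Leaving out each strain gave 1 to 2 calls, with 2 without A10. Without subtraction of chromosome medians it was 0 with WT1 added, 0 with the slide row as a block and 0 with only that row, and 0 to 2 with each strain left out: 0 without A2, A3 or A13 and 2 without A9. The causes of these moves were not tested. The ARO10 call relative to the chromosome held under every alternative except the addition of WT1, with limma adjusted p between 0.000866 and 0.0261. Of 392 recomputed single-gene values, 225 moved by less than the duplicate-spot SD and 167 by more. Among genes at least 2-fold from their chromosome in the main setting, 0 values changed direction. Changes of direction in genes nearer their chromosome were not counted. Of all 49 lists, 11 had a median that changed sign. Among them were hexose transport (0.06 in the main setting, range over settings -0.32 to 0.47) and meiosis and sporulation (0.05, range -0.49 to 0.33). Of 29 lists with a median of at least 0.1 in size, 1 changed sign, the allantoin cluster (0.12 in the main setting, -0.04 to 0.77 under the alternatives). No paired analysis was possible because each strain has 1 array.

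Without replicates of A14, spot agreement is the sole check on a single gene, and it does not cover differences between cultures, labelling or hybridisation. Dim genes carry compressed ratios. WT2 is common to all arrays, so an error in it enters every ratio in the same direction.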
